A study of Rattus norvegicus with 6 samples.

Results

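The nuclear-encoded subunits of the respiratory chain and ATP synthase were followed in the liver of animals kept on a high-fat diet. Members were the protein-coding rows of the gene table whose symbols match the families Nduf (a, b, c, s and v series), Sdha to Sdhd, Uqcr, Cyc1, Cox4 to Cox8 and Atp5. The choice gave 85 of 32930 rows, with 38 in complex I, 4 in complex II, 9 in complex III, 17 in complex IV and 17 in complex V. Of these, 82 passed the filter on low counts and entered the test, which ran on 18455 genes. Cox4i2, Cox7a1 and Cox8b did not pass it. A further 12 rows with matching symbols were not listed as protein-coding and were left out.

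The HFD group received a high-fat diet with 0.5% CMC-Na as vehicle. The HTG group received the same diet with Huazhuo Tiaozhi granule (HTG), a herbal preparation. The labels give 12 weeks for both groups. In the paper's Wistar rats the diet ran for 12 weeks and the granule was given only in the later part of them. Each group had 3 liver libraries from poly(A)-selected RNA, so both groups shared the diet and no animals on normal chow were compared here. The labels give the organism as rat and write the treated group as HCG in places, the paper's sequencing methods name C57BL/6 J mice, and the rows carry mouse gene identifiers. The species of the animals was therefore not settled by the sources used here. Sdha, Sdhd and Ndufa5 stood on chromosomes 13, 9 and 6 in the rows, and on 1, 8 and 4 in the rat assembly GRCr8. The rat build named in the labels therefore does not describe these positions, and the build behind them is not given. Age and sex are not given for these animals in the labels.

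The respiratory chain sits in the inner mitochondrial membrane. Complexes I and II take electrons from NADH and succinate, complex III passes them to cytochrome c, and complex IV passes them on to oxygen. Complexes I, III and IV pump protons as they do so, and complex V, the ATP synthase, uses the resulting gradient to make ATP. Complexes I, III, IV and V combine nuclear subunits with a few made from mitochondrial DNA, whereas all subunits of complex II are nuclear. Hepatocytes hold many mitochondria and use the chain for the oxidation of fatty acids.

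Library totals ran from 50648778 to 90563477 deposited counts. A single sequenced fragment was worth about 4 counts, which gives 12662194 to 22640869 fragments per library. The deepest library was HTG 2 and the shallowest HTG 3. Values are CPM, which scales each library to a common total after TMM normalisation. Single levels of different genes are compared as FPKM, which divides by gene length. Ratios, shares, sums over genes and the correlation with level use CPM, in which longer genes weigh more. Where 3 values are given for a group, they are libraries 1, 2 and 3 in that order. Of 8 hepatocyte markers, 7 were in the table, and their summed level was 92206 to 101608 CPM in HFD and 93558 to 100976 CPM in HTG, with 2 of 7 higher at an unadjusted p under 0.05. The summed level of 7 leukocyte markers was 602 to 888 CPM in HFD and 407 to 718 CPM in HTG, with 2 of 7 lower, and of 5 red cell markers 1 was lower. Of all genes tested, 12.3% were higher and 12.4% lower at that threshold. The part of these markers in the results was not tested. All 6 muscle markers together reached at most 0.209 CPM, with Ckm, Myh1, Tnnt3 and Myl1 at 0 in every library. These were whole-liver samples, in which fewer cells of a type and less RNA per cell cannot be told apart.

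No subunit passed an adjusted p of 0.05 in edgeR's quasi-likelihood test, where 0.00542% of all genes tested passed in each direction, 1 gene up and 1 gene down. The smallest adjusted p of a subunit was 0.0538. At an adjusted p under 0.1, 27 were higher in HTG (background 5.41%) and 6 lower (background 5.43%). At an unadjusted p under 0.05, 38 subunits were higher in HTG (46.3% of those tested, against 12.3% of all genes) and 12 were lower (14.6%, against 12.4% of all genes). The share lower was thus near the background, and the share higher was above it. In 44 subunits (53.7%) all 3 HTG libraries were above all 3 HFD libraries, against 16.5% of all genes, and in 14 (17.1%) all were below, against 15.5%. DESeq2 called 29 subunits higher (background 5.91%) and 9 lower (background 7.1%) at an adjusted p under 0.05. The count at an adjusted p under 0.05 depended on the settings: with a minimum of 10 counts in every library edgeR called 17 subunits higher (background 2.39%) and 3 lower (background 2.04%), and without HTG library 1 it called 3 higher (background 1.21%) and 5 lower (background 2.17%). The median log2 fold change, HTG over HFD, was 0.29 over the 82 subunits and 0.03 over all genes tested, and 56 subunits were higher by fitted value, as were 51.6% of all genes. Without HTG library 1 the median of the subunits was 0.18, and with a trend of fold change on gene length removed it was 0.19.

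The 12 lower subunits included Ndufs1, Ndufv1, Sdha, Sdhd, Cyc1, Uqcrc1, Uqcrc2, Cox7a2l, Atp5a1, Atp5b and Atp5pb. Without HTG library 3, 7 subunits rather than 12 were lower at an unadjusted p under 0.05, against 8.7% of all genes in that fit.

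**Figure D1:**
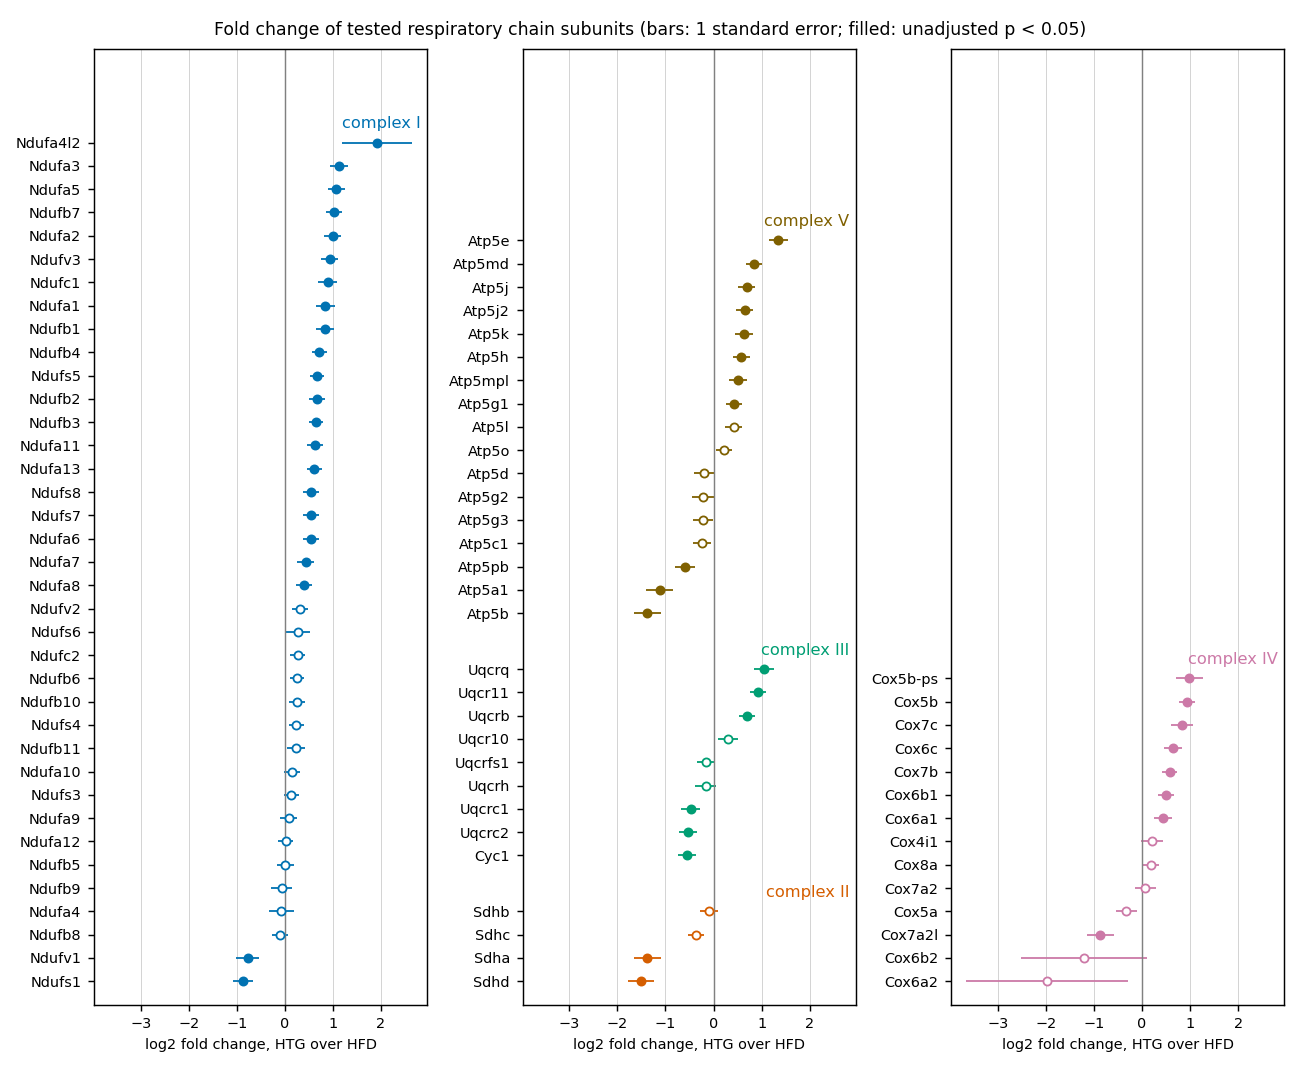
Log2 fold change of HTG over HFD (horizontal axis) for the tested subunits but 1, in panels by complex; points are edgeR estimates, bars 1 standard error, and filled points have an unadjusted p under 0.05. Complex II lies to the left of 0 throughout, while complexes I, III, IV and V each hold subunits on both sides.

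In complex I, 20 of 38 subunits were higher in HTG at an unadjusted p under 0.05 (52.6%, against 12.3% of all genes). At that threshold 3 were lower (7.89%, below the 12.4% of all genes). The complex had a median log2 fold change of 0.42. The core and accessory subunits are given apart. The 7 nuclear core subunits carry electrons from NADH towards ubiquinone. Of these, 2 were higher (28.6%, against 12.3% of all genes) and 3 lower (42.9%, against 12.4%). Their median was 0.13, and 0.02 without HTG library 1. The accessory subunits surround and stabilise the core. Taken as all 31 other members, with Ndufa4 and Ndufa4l2 among them, they had 18 higher (58.1%, against 12.3% of all genes) and 0 lower. Ndufa4l2 was 1 of the 18. Their median was 0.54.

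Ndufs1, the core subunit with the largest number of iron-sulphur clusters, was at 68.7, 77.3 and 110 CPM in HFD and at 48.6, 47.7 and 42.4 CPM in HTG. All 3 HTG libraries were below the lowest HFD library, with a log2 fold change of −0.88 ± 0.21 (SE, n = 3 per group; edgeR adjusted p = 0.0641). Ndufv1, which holds the flavin and oxidises NADH, was at 112, 136 and 133 CPM in HFD and at 99.1, 58.7 and 64.6 CPM in HTG. Here too the groups did not overlap, HTG library 1 being the closest to HFD, and the log2 fold change was −0.77 ± 0.23 (edgeR adjusted p = 0.0981).

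A further 4 core subunits did not share this direction. Ndufs7 and Ndufs8, which carry iron-sulphur clusters near the quinone site, both had a log2 fold change of 0.55 with no overlap between groups. Ndufs7 was at 49.5, 55.9 and 43.3 CPM in HFD and 73.1, 76.0 and 68.0 CPM in HTG. Ndufs8 was at 65.0, 54.3 and 62.6 CPM in HFD and 79.3, 95.9 and 90.3 CPM in HTG. The iron-sulphur subunit Ndufv2 had a log2 fold change of 0.32 without overlap, and Ndufs3 one of 0.13 with overlap. Neither had an unadjusted p under 0.05.

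Among the accessory subunits, Ndufa5 was at 18.4, 17.4 and 17.8 CPM in HFD and 35.1, 45.5 and 32.1 CPM in HTG. The HFD libraries lay close together and every HTG library was well above them, with a log2 fold change of 1.07 ± 0.18 (edgeR adjusted p = 0.0538). The table lists Ndufa5 on chromosome 6 from 24518665 to 24527569. Ndufa3 was at 10.1, 11.6 and 8.49 CPM in HFD and 23.2, 23.7 and 18.9 CPM in HTG, a log2 fold change of 1.12 ± 0.19 (edgeR adjusted p = 0.0538). Its row overlaps Tfpt on the opposite strand, and whether the counting used strand is not given in the sources used here. By series, 10 of 14 Ndufa (71.4%) and 5 of 11 Ndufb subunits (45.5%) were higher at an unadjusted p under 0.05. The share of all genes was 12.3%, and none of either series was lower.

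Ndufa8, an accessory subunit of the intermembrane space, had the highest level of the complex at a mean of 110 FPKM. It was at 85.2, 80.1 and 91.9 CPM in HFD and 105, 111 and 124 CPM in HTG. The groups did not overlap and the log2 fold change was 0.40 ± 0.17 (edgeR adjusted p = 0.183), but its unadjusted p stayed under 0.05 only when HFD library 3 was the library left out. Ndufa4, now counted as a complex IV subunit, overlapped between groups with a log2 fold change of −0.08. Its paralog Ndufa4l2, known to be induced by low oxygen, was scarce at 1.73, 0.210 and 0.891 CPM in HFD and 2.02, 6.33 and 2.33 CPM in HTG. HTG library 2 was the highest, and the log2 fold change of 1.92 ± 0.73 (edgeR adjusted p = 0.154) lost its unadjusted threshold without that library or without HFD library 3.

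Complex II was lower in HTG for all 4 subunits by fitted value. Sdha and Sdhd were lower at an unadjusted p under 0.05 (50%, against 12.4% of all genes). The median log2 fold change of the complex was −0.87. Sdha, the flavoprotein that oxidises succinate, was at 271, 306 and 404 CPM in HFD and at 169, 94.6 and 115 CPM in HTG. HTG library 1 was again the closest to HFD and the groups did not overlap, with a log2 fold change of −1.38 ± 0.27 (edgeR adjusted p = 0.0582). Sdhd, a membrane anchor that helps form the quinone site, was at 143, 197 and 195 CPM in HFD and at 85.4, 46.7 and 56.1 CPM in HTG. Its log2 fold change of −1.50 ± 0.27 (edgeR adjusted p = 0.055) was the most negative among subunits with an unadjusted p under 0.05. The table lists Sdha on chromosome 13 from 74470373 to 74498399 and Sdhd on chromosome 9 from 50507657 to 50515112.

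The other anchor, Sdhc, was at 157, 162 and 150 CPM in HFD and 137, 109 and 119 CPM in HTG. Its groups did not overlap, but its log2 fold change of −0.36 ± 0.18 had an edgeR adjusted p of 0.243. Sdhb, the iron-sulphur subunit, overlapped at 165, 140 and 176 CPM in HFD and 163, 159 and 130 CPM in HTG, and its log2 fold change of −0.09 changed sign in some alternatives. The count ratio of Sdha to Sdhb was accordingly 1.64, 2.18 and 2.30 in HFD and 1.04, 0.595 and 0.883 in HTG. Summed over the 4 subunits, complex II had 822 ± 95.8 CPM in HFD and 461 ± 80.8 CPM in HTG (SD, n = 3).

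Promoter sequence was examined for the motif GCGCANGCGC on both strands, the type bound by the factor NRF1, which is known to act on many respiratory chain genes. RefSeq promoters of the rat assembly GRCr8, 250 bases before to 50 after the start, could be matched by symbol for 74 of the 85 subunits. The rat sequence fits the labelled organism but not the mouse identifiers of the rows. Of the 74 promoters, 15 (20.3%) held the motif, against 4.25% of all 33469 promoters. It was found in 7 of 31 subunits that were higher and in 2 of 10 that were lower at an unadjusted p under 0.05, so the letters occurred in both directions. A match is no measurement of binding. The promoters of Ndufa5 (higher, chr4:53971186-53971485, minus strand) and Sdha (lower, chr1:30764303-30764602, plus strand) are given 5′ to 3′ as an example of each direction, with the motif in capitals, once in Ndufa5 and 3 times in Sdha.
Ndufa5: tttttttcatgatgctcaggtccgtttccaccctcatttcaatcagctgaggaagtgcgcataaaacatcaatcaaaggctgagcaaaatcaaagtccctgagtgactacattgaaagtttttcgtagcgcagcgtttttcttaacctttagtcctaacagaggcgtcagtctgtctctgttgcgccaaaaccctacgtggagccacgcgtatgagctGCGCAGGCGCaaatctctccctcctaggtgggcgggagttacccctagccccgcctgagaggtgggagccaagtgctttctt
Sdha: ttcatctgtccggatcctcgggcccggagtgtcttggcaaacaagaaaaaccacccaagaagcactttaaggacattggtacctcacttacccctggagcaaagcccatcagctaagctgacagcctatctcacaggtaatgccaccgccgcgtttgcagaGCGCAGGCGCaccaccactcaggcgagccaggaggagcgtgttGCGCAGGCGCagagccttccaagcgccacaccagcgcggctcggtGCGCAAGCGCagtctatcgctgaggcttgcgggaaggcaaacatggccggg

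Complex III was divided evenly, with 3 of 9 subunits higher and 3 lower by the unadjusted threshold of 0.05. That is 33.3% in each direction, against 12.3% and 12.4% of all genes. The median log2 fold change was −0.16. With a library left out that median ran from −0.30 (without HTG library 1) to −0.05 (without HFD library 2), and it was −0.07 without HTG library 2 and −0.06 without HTG library 3. The higher members were small subunits. Over the 6 libraries Uqcrq had the highest mean of the complex (156 FPKM). In HFD alone Uqcrfs1 was higher (115 against 103 FPKM). Uqcrq was at 210, 219 and 159 CPM in HFD and 409, 436 and 370 CPM in HTG. Every HTG library was above every HFD library, with a log2 fold change of 1.05 ± 0.21 (edgeR adjusted p = 0.0582). Uqcr11 had a log2 fold change of 0.93 ± 0.17 (edgeR adjusted p = 0.0553) and Uqcrb one of 0.70 ± 0.17 (edgeR adjusted p = 0.0635), both with no overlap between groups.

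The lower members were Cyc1, the haem-bearing cytochrome c1, and the core proteins Uqcrc1 and Uqcrc2. Cyc1 was at 138, 162 and 149 CPM in HFD and 121, 95.5 and 91.1 CPM in HTG, a log2 fold change of −0.55 ± 0.19 (edgeR adjusted p = 0.124). Uqcrc1 was at 196, 217 and 243 CPM in HFD and 186, 141 and 144 CPM in HTG, a log2 fold change of −0.48 ± 0.20 (edgeR adjusted p = 0.187). For Uqcrc2 the log2 fold change was −0.52 ± 0.19 (edgeR adjusted p = 0.14). None of the 3 overlapped between groups, and HTG library 1 was the highest HTG library in each, but each lost its unadjusted threshold when HTG library 2 or HTG library 3 was left out. Cyc1 lost it also without HFD library 2, Uqcrc2 without HFD library 3 and Uqcrc1 whichever HFD library was left out. The Rieske iron-sulphur subunit Uqcrfs1, at 161, 179 and 147 CPM in HFD and 164, 138 and 134 CPM in HTG, overlapped. The summed level of the complex was 1113 ± 63.2 CPM in HFD and 1201 ± 118 CPM in HTG.

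**Figure D2:**
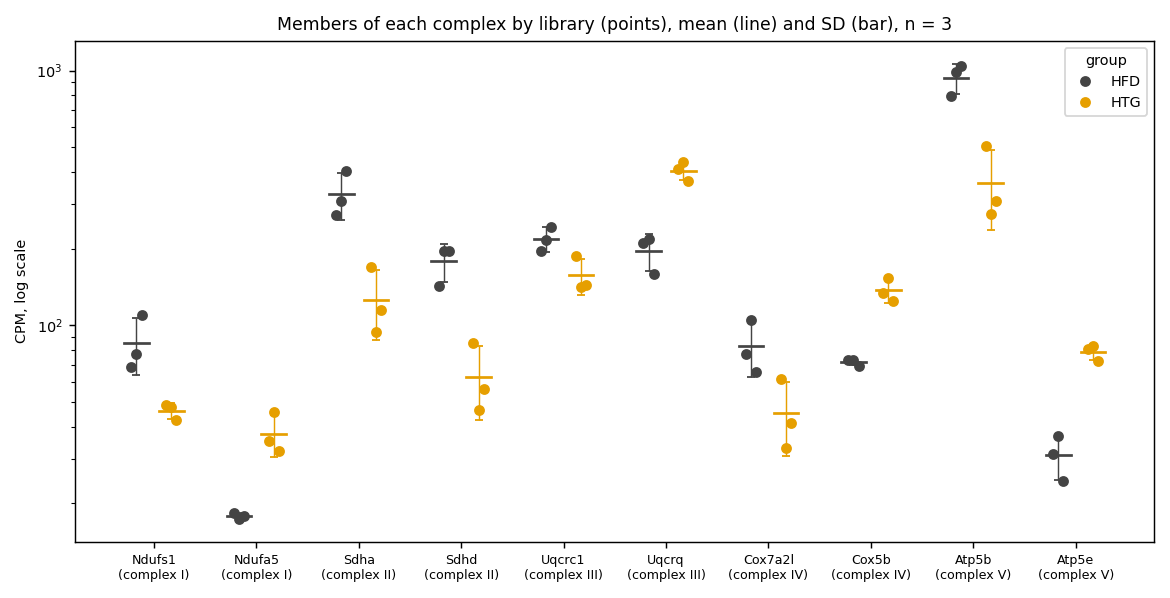
CPM on a log axis for 10 subunits, with each library as a point, the group mean as a line and the SD as a bar (n = 3). Ndufs1, Sdha, Sdhd, Uqcrc1, Cox7a2l and Atp5b lie lower in HTG and Ndufa5, Uqcrq, Cox5b and Atp5e higher, with no overlap between groups in any of the 10.

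In complex IV, 7 of the 14 tested subunits were higher in HTG (50%, against 12.3% of all genes) at an unadjusted p under 0.05. Only 1 was lower (7.14%, below the 12.4% of all genes). The median log2 fold change was 0.33, and 0.52 without HFD library 2. With at least 10 counts in every library, which leaves out the scarce Cox6a2 (−1.97) and Cox6b2 (−1.21), it was 0.475. With counts divided by 4 it was 0.481. Cox5b, which binds zinc on the matrix side, was at 73.2, 73.3 and 69.3 CPM in HFD and 134, 153 and 125 CPM in HTG. The groups stood well apart, with a log2 fold change of 0.93 ± 0.17 (edgeR adjusted p = 0.0553). Cox5b-ps, named as a pseudogene but listed as protein-coding, had a log2 fold change of 0.98 ± 0.28 (edgeR adjusted p = 0.0882) at 2.13 to 3.36 CPM in HFD, and reads of such a near-copy may be shared with Cox5b. Cox7c was at 48.0, 50.3 and 40.8 CPM in HFD and 73.6, 108 and 64.5 CPM in HTG. HTG library 2 was the highest and the groups did not overlap, with a log2 fold change of 0.83 (edgeR adjusted p = 0.0823).

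Cox7a2l, which joins complex IV to complex III in supercomplexes, was the 1 lower member. It was at 77.2, 105 and 65.8 CPM in HFD and 61.8, 33.0 and 41.3 CPM in HTG. The highest HTG library lay just under the lowest HFD library, and the log2 fold change was −0.87 ± 0.28 (edgeR adjusted p = 0.107). Cox4i1 (log2 fold change 0.21) and Cox5a (−0.33), which join the catalytic core early in assembly, both overlapped between groups.

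Complex IV has tissue isoforms, and the forms known from liver were the abundant ones. Cox6a1, the liver form and the highest of the complex at a mean of 208 FPKM, was set against 0.288 FPKM for the muscle form Cox6a2. Cox4i1 and Cox8a had means of 185 and 143 FPKM, against 0.0483 FPKM for Cox4i2 and 0.0217 FPKM for the muscle form Cox8b. Cox6b1 stood at 178 FPKM, while its testis form Cox6b2 had between 0 and 48 deposited counts in a library. For Cox7a1, the muscle partner of Cox7a2, the mean was 0.397 FPKM. Deposited counts of Cox7a1 were 7, 8 and 9 in HFD and 8, 46 and 22 in HTG, those of Cox4i2 were 0, 0 and 8 in HFD and 7, 5 and 0 in HTG, and Cox8b had 5 counts in HTG library 2 and 0 elsewhere. A floor of 3 fragments is 12 counts, so of these 3 genes only Cox7a1 in HTG libraries 2 and 3 was above it, and a count of 0 allows a level of up to 0.123 to 0.256 CPM by counting error alone.

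Between groups, Cox6a1 was at 129, 145 and 117 CPM in HFD and 198, 175 and 156 CPM in HTG, a log2 fold change of 0.44 ± 0.19 (edgeR adjusted p = 0.192) that lost its unadjusted threshold in 4 of the 6 fits with a library left out. Cox6b1 (0.49 ± 0.17) and Cox7b (0.57 ± 0.16) did not overlap between groups, with edgeR adjusted p of 0.124 and 0.082. Cox6b1 lost its unadjusted threshold without HFD library 3. Cox7a2 (0.07) and Cox8a (0.18) overlapped. The summed level of complex IV was 1098 ± 152 CPM in HFD and 1371 ± 126 CPM in HTG.

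By the unadjusted threshold of 0.05, complex V had 8 of 17 subunits higher (47.1%, against 12.3% of all genes). It had 3 lower (17.6%, against 12.4% of all genes), and its median log2 fold change was 0.42. The F1 head, in which the alpha and beta subunits form the catalytic ring around a central stalk, had a median of −0.24 over 5 subunits. The 12 subunits outside it had a median of 0.47.

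Atp5b, the catalytic beta subunit, was at 795, 983 and 1037 CPM in HFD and 504, 275 and 306 CPM in HTG. The groups were far apart, with HTG library 1 the nearest to HFD, and the log2 fold change was −1.37 ± 0.28 (edgeR adjusted p = 0.0585). Atp5a1, the alpha subunit, had the highest mean of the complex over the 6 libraries (178 FPKM). In HTG alone Atp5h was higher (123 against 109 FPKM). Atp5a1 was at 706, 774 and 919 CPM in HFD and 503, 270 and 328 CPM in HTG, a log2 fold change of −1.12 ± 0.28 (edgeR adjusted p = 0.0659). The pair of Atp5a1 and Atp5b made up 50.1%, 52.2% and 57.4% of the complex V reads in HFD and 35.4%, 25.5% and 29.2% in HTG. The summed level of the complex was 3258 ± 227 CPM in HFD and 2385 ± 401 CPM in HTG. Without the pair it was 1496, 1612 and 1452 CPM in HFD and 1840, 1591 and 1538 CPM in HTG, which overlap.

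Atp5e, the small epsilon subunit of the central stalk, had the opposite pattern. It was at 31.3, 36.9 and 24.5 CPM in HFD and 80.6, 83.3 and 72.5 CPM in HTG. Each HTG library was above each HFD library, with a log2 fold change of 1.35 ± 0.20 (edgeR adjusted p = 0.0538). Atp5c1, the gamma subunit of the same stalk, was at 202, 201 and 201 CPM in HFD and 198, 154 and 162 CPM in HTG, a log2 fold change of −0.24 without overlap and with an edgeR adjusted p of 0.46.

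Outside F1, Atp5md, a small membrane subunit linked to dimers of the enzyme, was at 22.4, 24.7 and 20.0 CPM in HFD and 36.1, 45.4 and 38.3 CPM in HTG. Its groups did not overlap (log2 fold change 0.84 ± 0.17, edgeR adjusted p = 0.0582). Atp5j, of the peripheral stalk, had a log2 fold change of 0.69 ± 0.18 (edgeR adjusted p = 0.0777), while Atp5pb, the b subunit of the same stalk, had one of −0.59 ± 0.21 (edgeR adjusted p = 0.133). Neither overlapped between groups, and Atp5pb lost its unadjusted threshold without HTG library 2 or 3. Atp5md, Atp5j and Atp5pb each overlap a gene on the opposite strand (Taf5, Gabpa and Wdr77).

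The 3 genes for the c subunit, which encode the same mature protein of the membrane ring, did not share a direction. Atp5g1 was at 79.3, 69 and 86.3 CPM in HFD and 108, 101 and 107 CPM in HTG, a log2 fold change of 0.43 ± 0.17 (edgeR adjusted p = 0.162) without overlap. It lost its unadjusted threshold in 4 of the 6 fits with a library left out. Atp5g2 and Atp5g3 overlapped, both at a log2 fold change of −0.22. The count ratio of Atp5g1 to Atp5g3 was 0.438, 0.311 and 0.436 in HFD and 0.514, 0.688 and 0.680 in HTG.

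**Figure D3:**
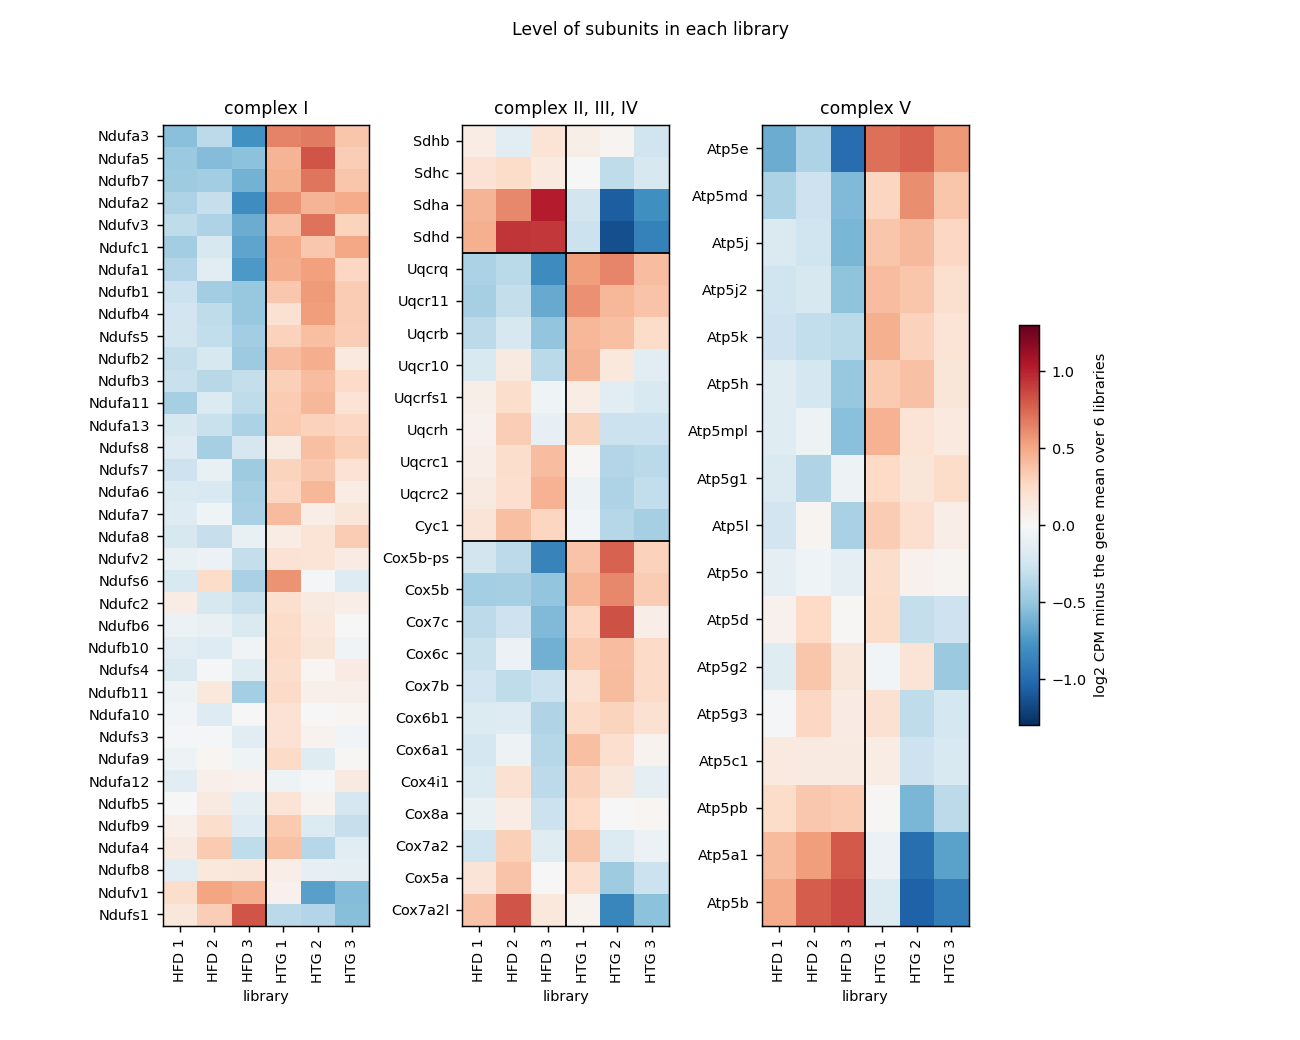
Level of the tested subunits with a mean above 1 CPM in HFD, 1 of them not drawn, as log2(CPM + 0.1) minus the gene's mean over the 6 libraries (red above, blue below), by library and complex; within each complex subunits run from the highest to the lowest fold change. For Sdha, Sdhd, Atp5a1 and Atp5b the blue of HTG library 1 is paler than that of HTG libraries 2 and 3.

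Other genes of the pathway were read beside the subunits. Of 51 genes listed as assembly factors, 50 were tested, with a median log2 fold change of −0.01. By the unadjusted threshold of 0.05, 9 were higher (18%, against 12.3% of all genes) and 5 lower (10%, against 12.4%). The list also held Ndufab1 (0.30), a complex I subunit whose symbol lies outside the families used for members. The largest differences were Pet100 (1.68) and Cox17 (1.20), which act in complex IV assembly, Uqcc2 (1.19) for complex III, and Nubpl (−1.42), which delivers iron-sulphur clusters to complex I. Of 22 electron carriers, electron feeders and metabolite carriers or channels, 2 were higher (9.09%, against 12.3% of all genes). In the same list 6 were lower (27.3%, against 12.4% of all genes), with a median of −0.26. Etfdh (−1.20), which passes electrons from fatty acid oxidation to ubiquinone, and the outer membrane channel Vdac1 (−1.16) were lower. The higher members were Etfb (0.52), a subunit of the flavoprotein that hands electrons to Etfdh, and Coq3 (0.52), of ubiquinone synthesis, both named after their values were seen. Etfa, the other subunit of that flavoprotein and likewise named afterwards, was lower without overlap (−0.41) at an edgeR unadjusted p of 0.0761. The 13 mRNAs of mitochondrial DNA were all higher at an unadjusted p under 0.05, with a median log2 fold change of 1.21. Their log2 fold changes were 1.12 to 1.51 for the 7 of complex I, 1.16 for the 1 of complex III, 1.08 to 1.12 for the 3 of complex IV and 1.11 to 1.24 for the 2 of complex V. They took 4.82% to 6.31% of counts in HFD and 9.12% to 14.9% in HTG.

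Fold change moved with gene length and with level. The length is the one behind the deposited FPKM, with a median of 1301 bases for the 38 higher subunits and 3020 bases for the 12 lower ones. It was worked out from counts and FPKM and need not be that of the mRNA. Ndufb2 stood at 5945 bases and Atp5l at 6790, both above 2500. Removing a trend on this length therefore need not adjust for mRNA length. Across the 82 subunits the Spearman correlation of log2 fold change with length was −0.309, and across all genes it was −0.155, with all points sharing the same 6 libraries. With level, as mean CPM over the libraries, it was −0.467 across the subunits and −0.17 across all genes. The median HFD level was 33.2 CPM for the higher subunits and 192 CPM for the lower ones. Among all genes, the median log2 fold change was 0.44 under 600 bases, 0.34 from 600 to 1000, 0.25 from 1000 to 1500, 0.10 from 1500 to 2500 and −0.03 above 2500. The subunits in these classes had medians of 0.91, 0.40, 0.55, 0.17 and 0.07, over 2, 17, 17, 24 and 22 members. With the length trend removed, the median of complex I was 0.32 in place of 0.42, that of complex III −0.28 in place of −0.16 and that of complex IV 0.20 in place of 0.33. The part of length, level and RNA quality in the higher values of the small subunits was not tested further.

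**Figure D4:**
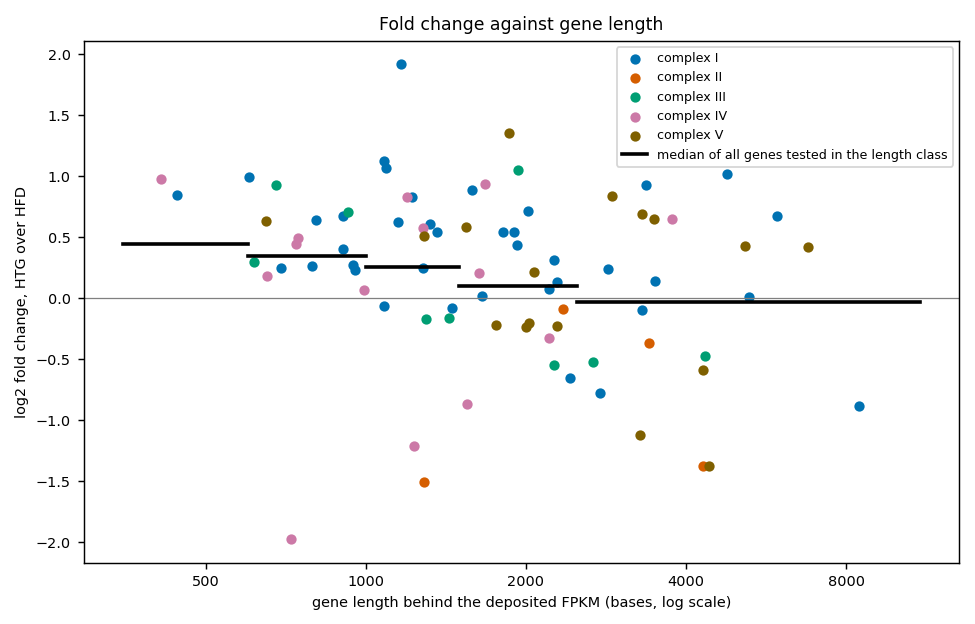
Log2 fold change of HTG over HFD against the gene length behind the deposited FPKM (bases, log axis) for the tested subunits, coloured by complex, with black lines for the median of all genes tested in each length class. The black lines step down from 0.44 in the shortest class to −0.03 in the longest, and subunits lie on both sides of them.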

How the data were processed

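Liver poly(A) RNA was sequenced in 3 HFD and 3 HTG libraries with a strand-marked paired-end protocol. The authors deposited 1 table with estimated counts and FPKM per gene. Per the labels, the submitters' processing notes name HISAT2, StringTie and SAMtools without versions or roles, and the build mRatBN7.2, which is at odds with the mouse identifiers of the rows. The deposited counts were whole numbers in which a fragment was worth about 4. FPKM was used for levels between genes and for gene length.

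All rows were fitted with edgeR 4.0.16 (R 4.3.3): TMM scaling, filterByExpr, a quasi-likelihood test on group and Benjamini-Hochberg adjustment over all 18455 genes tested. The code was tested on simulated data. Alternatives were DESeq2 1.42.0, limma 3.58.1 on log2(FPKM + 0.1) and log2(FPKM + 1), other scalings and filters, counts divided by 4, removal of a length trend, a replicate block, and each library left out. P-values measure the spread between 3 libraries per group. A permutation test of 3 against 3 cannot go below 0.1 and was not used.

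Members and lists were chosen with earlier results of these data known. Named were up to 3 subunits per direction and complex with the largest fold change at an unadjusted p under 0.05, the highest FPKM per complex, fixed core subunits and isoform families, and members that were not tested. The values of 1 member are not reported here, though the counts include it. 34 members overlap another row, 11 of them a gene on the opposite strand with a count at least 0.1 times their own.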

Additional observations from a re-analysis of the deposited data

How the results depend on the processing

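No subunit with an unadjusted p under 0.05 that is named in the text changed direction under any alternative, and the medians over each complex kept their sign in all of them. Counts at an adjusted p under 0.05, 0 higher and 0 lower as reported, were 29 and 9 with DESeq2 (5.91% and 7.1% of all genes), 4 and 1 with no filter (0.289% and 0.255%), 17 and 3 with at least 10 counts in every library (2.39% and 2.04%), 12 and 4 with limma on log2(FPKM + 0.1) (2.98% and 5.05%) and also on log2(FPKM + 1) (3.01% and 5.08%), and 18 and 3 with counts divided by 4 (3.08% and 2.44%). Leaving out a library gave 0 to 3 higher and 0 to 5 lower, and an adjusted p under 0.1 gave 27 and 6 (5.41% and 5.43%). At an unadjusted p under 0.05, 38 higher and 12 lower became 33 to 37 and 7 to 14 with a library left out. In those fits 8.07% to 11% of all genes were higher and 8.09% to 14.8% lower. With the replicate number as a block the counts of subunits became 33 and 10 (10.4% and 10.5% of all genes). Deviations of same-numbered libraries correlated at −0.13, −0.113 and 0.189, so the numbers were not taken to pair the libraries, and the block gave 0 calls at an adjusted p under 0.05. The median of complex I was 0.32 with the length trend removed. With a library left out, the medians were 0.35 to 0.47 for complex I, −1.09 to −0.75 for complex II, −0.30 to −0.05 for complex III, 0.31 to 0.52 for complex IV and 0.31 to 0.42 for complex V. Of 31 named subunits with an unadjusted p under 0.05, 10 lost it in at least 1 alternative, while Cox5a, Cox6a2 and Sdhc gained it in some. The cause was not tested. Ndufa4, Cox7a2 and Sdhb changed sign without passing the threshold. Depth limits the scarce isoforms Cox4i2, Cox6a2, Cox6b2, Cox7a1 and Cox8b, which had at most 48 counts in a library, where a fragment was worth about 4.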

Other observations

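Some copies left out as not protein-coding carry reads beside their parent genes. Ndufa12-ps had a mean of 6.73 CPM in HFD and 15.0 CPM in HTG, a log2 fold change of 1.16, whereas Ndufa12 itself had 23.5 and 23.8 CPM. Ndufb4c had a mean of 4.96 CPM in HFD and 6.30 to 8.03 CPM in HTG, and Atp5pb-ps had 2.34 and 1.95 CPM. How reads were divided between a parent gene and such copies is not given in the sources used here.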
